A study of Mus musculus with 9 samples.

Results

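The Hippo pathway is a kinase cascade that decides whether the coactivators YAP1 and TAZ (the product of Wwtr1) may enter the nucleus and bind the TEAD family of DNA-binding proteins. When LATS1 and LATS2 are active they phosphorylate both coactivators, which then stay in the cytoplasm, and angiomotins (Amot, Amotl2) hold them at cell junctions. In the early mouse embryo, TEAD4 with nuclear YAP1 switches on trophectoderm genes in outer cells, while in inner cells, from which embryonic stem (ES) cells derive, the cascade keeps YAP1 out of the nucleus. The genes described here are 10 named members of this pathway, matched by symbol to Ensembl gene IDs, out of 52636 IDs in the count table: the factors Tead1, Tead2, Tead3 and Tead4, the coactivators Yap1 and Wwtr1, the kinases Lats1 and Lats2, and the angiomotin genes Amot and Amotl2. They were named by pathway, not by a measured value, but with earlier results of these data known.

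RNA was sequenced from 9 libraries of mouse ES cells, 3 from each of 3 lines that all carry the Nanog knockout. The titles are NanogKO:Esrrb:Nanog (44JN) for the Esrrb+Nanog line, NanogKO:Esrrb (44J) for the Esrrb line and NanogKO (44C6) for the Nanog-null line. Nanog and Esrrb are transcription factors of the ES cell state. The genotype label is N{delta}:cE:iN for the Esrrb+Nanog and Esrrb lines alike and N{delta} for the Nanog-null line, so the titles alone separate the first pair. Cells received no treatment, grew in medium with 10% serum and 1000 U/ml leukaemia inhibitory factor, and were sorted as PECAM+PDGFRA-. Each group is a single line, so added genes and line cannot be told apart. Nothing in the labels says that replicates were separate cultures, so the p-values cover a spread among libraries that may be technical only.

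Libraries held 21808120 to 32496267 counts in genes. Nanog was at 222 to 333 normalised read counts (CPM, counts over the scaled library total) in Esrrb+Nanog libraries, 29.7 to 35.1 CPM in Esrrb libraries and 14.3 to 16.02 CPM in Nanog-null libraries, where the extent of the deletion is not given in the labels. Esrrb was at 1056 to 1151, 692 to 949 and 253 to 303 CPM in the same order of lines. All 7 ES cell markers, Pou5f1 and Sox2 among them, were detected in every library, with summed levels of 3245 to 3450 CPM in Esrrb+Nanog, 3452 to 3567 CPM in Esrrb and 2486 to 2708 CPM in Nanog-null libraries. Markers of other cells were lower but differed between lines. The 6 trophoblast markers summed to 18.5 to 22.1 CPM in Esrrb+Nanog, 15.2 to 18.4 CPM in Esrrb and 35.8 to 121 CPM in Nanog-null libraries, with 3, 3 and 1 to 2 of them under 1 CPM. For the 6 fibroblast or smooth muscle markers the sums were 7.57 to 14.1, 7.34 to 13.7 and 13.5 to 83.1 CPM, with 4, 5 and 1 to 2 under 1 CPM. The 7 primitive endoderm markers summed to 13.9 to 22.2, 27.5 to 62.9 and 11.5 to 35.9 CPM. Of these, Gata6 averaged 25.2 CPM in the Esrrb line and 3.66 CPM in the Nanog-null line, and Pdgfra 10.45 and 2.29 CPM. Dab2 (4.73 and 11.9 CPM) and Foxa2 (0.25 and 0.58 CPM) went the other way. Nanog-null replicate 2 was the highest Nanog-null library for all 3 of these lists, and the results below are given without it where that changes them.

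**Figure D1:**
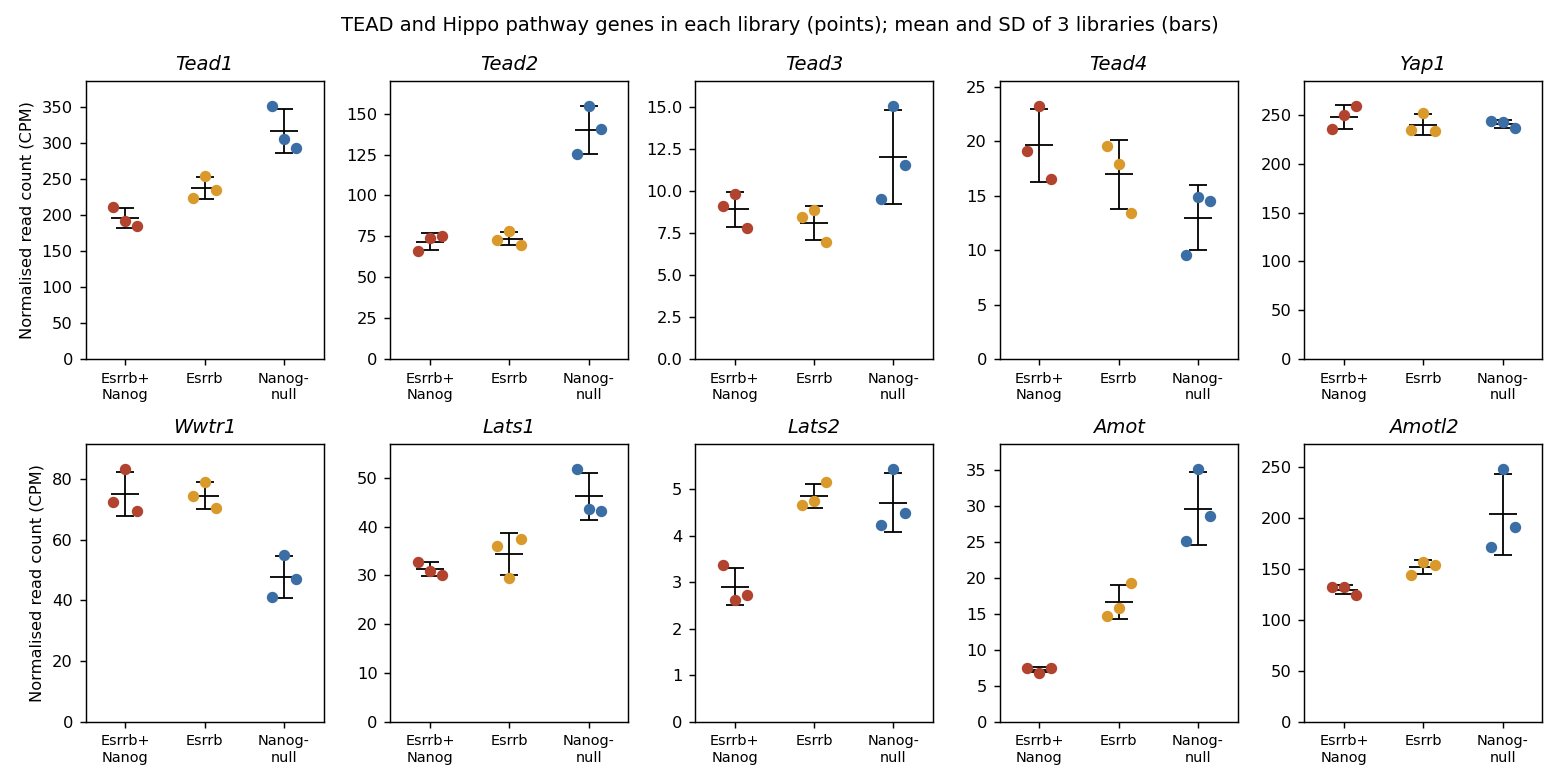
Normalised read count (CPM, vertical axes from 0) of the 10 pathway genes in each library (points), with the mean and SD of 3 libraries (bars), for the Esrrb+Nanog, Esrrb and Nanog-null lines. Yap1 lies between 233 and 259 CPM in all 9 libraries, whereas Tead2 lies at 66.1 to 78.0 CPM in the libraries of both lines with added genes and at 125 to 154 CPM in Nanog-null libraries.

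The promoters of the pathway genes were searched for the TEAD motif because Amotl2 and Lats2 are themselves known targets of YAP1 and TEAD, which makes feedback part of the pathway. RefSeq promoter windows (GRCm38.p6, the same assembly as mm10, 250 bases before to 50 after the start) were found for 8 of the 10 members, 12 windows in all, and none was matched for Tead1 and Tead4. The TEAD motif CATTCC, read on both strands, lay in 7 of the 12 windows and in at least 1 window of 5 members. It lies in 14.7% of all 32851 windows of this length. The ESRRB half-site AAGGTCA, also read on both strands, lay in none of the members' windows and in 4.72% of all windows. Both Wwtr1 windows overlap and hold the same match, which is counted in each. Windows of Tead3 overlap as well, with different matches. The shares over all windows are not shares of genes, so they cannot be set beside the count of members. Shown are 3 members with the motif, of which Amotl2 was lower, Wwtr1 higher and Yap1 not called in the lines with added genes against Nanog-null, and Tead2, which was lower and has none. Capitals mark the TEAD motif, written as CATTCC or as its reverse complement GGAATG. Amotl2 (chr9:102717554-102717853, plus strand) has it at position -65, Wwtr1 (chr3:57575861-57576160, minus strand) at -136 and Yap1 (chr9:8004547-8004846, minus strand) at -141, where position 0 is the start base. The Tead2 window is chr7:45215542-45215841 on the plus strand.
Amotl2: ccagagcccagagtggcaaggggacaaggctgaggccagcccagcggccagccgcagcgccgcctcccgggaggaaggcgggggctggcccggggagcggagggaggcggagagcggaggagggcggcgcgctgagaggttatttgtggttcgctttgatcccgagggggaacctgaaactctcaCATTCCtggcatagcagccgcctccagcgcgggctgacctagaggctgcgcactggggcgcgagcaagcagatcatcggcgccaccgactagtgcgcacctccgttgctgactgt
Wwtr1: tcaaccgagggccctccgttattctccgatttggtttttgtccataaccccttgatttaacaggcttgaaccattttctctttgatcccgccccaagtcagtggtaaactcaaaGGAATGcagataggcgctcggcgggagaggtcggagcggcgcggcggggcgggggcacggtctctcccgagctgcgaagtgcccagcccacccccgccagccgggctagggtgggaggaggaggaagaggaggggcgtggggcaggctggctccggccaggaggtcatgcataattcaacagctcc
Yap1: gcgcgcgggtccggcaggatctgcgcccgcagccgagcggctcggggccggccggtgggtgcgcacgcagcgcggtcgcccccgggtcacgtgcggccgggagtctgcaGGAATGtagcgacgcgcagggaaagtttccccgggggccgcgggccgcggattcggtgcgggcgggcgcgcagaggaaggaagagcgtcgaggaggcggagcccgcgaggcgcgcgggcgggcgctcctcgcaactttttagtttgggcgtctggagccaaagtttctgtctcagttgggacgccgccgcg
Tead2: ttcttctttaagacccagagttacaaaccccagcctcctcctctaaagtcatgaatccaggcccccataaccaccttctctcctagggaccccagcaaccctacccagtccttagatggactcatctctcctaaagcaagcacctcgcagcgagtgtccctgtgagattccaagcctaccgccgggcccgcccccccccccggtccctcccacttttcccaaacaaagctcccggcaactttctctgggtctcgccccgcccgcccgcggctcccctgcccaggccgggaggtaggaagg
These matches describe letters only and are neither sites of binding nor a cause of any level given here.

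The Esrrb line had lower levels of most of the TEAD and angiomotin genes and a higher level of Wwtr1 than the Nanog-null line, while Yap1 stayed within its spread. Of the 10 genes, all of which passed the low-count filter, 6 were lower in the Esrrb line than in the Nanog-null line (Tead1, Tead2, Tead3, Lats1, Amot and Amotl2), 1 was higher (Wwtr1) and 3 were not called (Tead4, Yap1 and Lats2) by edgeR's quasi-likelihood test at an adjusted p of 0.05. Of all 16198 genes tested, 48.5% were called, 24.2% lower and 24.2% higher. The median log2 change was -0.42 over the 10 genes and 0.01 over all tested genes. For 7 of the 10 the libraries of the lines did not overlap, against 58.4% of all tested genes. In these bulk samples fewer cells of a type and less RNA per cell cannot be told apart. Without Nanog-null replicate 2, 5 members were lower and 1 was higher, and 41.4% of all tested genes were called.

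The Tead genes encode the DNA-binding partners of YAP1 and TAZ. Tead2 (ENSMUSG00000030796, mm10 chromosome 7, 45215753 to 45233644, GENCODE M21), the family member long known from early embryos and ES cells, had 73.0, 78.0 and 69.8 CPM in Esrrb libraries, against 125, 154 and 140.5 CPM in Nanog-null libraries. Every Esrrb library was well below every Nanog-null library. The log2 change was -0.93 ± 0.084 (SE, n = 3 per line, edgeR adjusted p = 5.13e-06), and Tead2 was the only member of the 10 still called when tested against a fold change of 1.5. Its exons overlap at the 3′ end with the opposite-strand gene Cd37 (from 45233632 to 45233644), which held 1170 counts over the 9 libraries. Whether reads were counted by strand is not stated. Tead1 (ENSMUSG00000055320, chromosome 7, 112679318 to 112906807) had 224, 254 and 234 CPM in Esrrb libraries, against 351, 305 and 294 CPM in Nanog-null libraries. The groups did not overlap, and the log2 change was -0.41 ± 0.080 (adjusted p = 0.00126).

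Tead3 (ENSMUSG00000002249, chromosome 17, 28331671 to 28350817) had 8.43, 8.87 and 6.95 CPM in Esrrb libraries, against 9.50, 15.02 and 11.5 CPM in Nanog-null libraries. Its log2 change of -0.57 ± 0.17 was called (adjusted p = 0.0145), but not without Nanog-null replicate 2 (-0.40, 0.0668) or Esrrb replicate 3 (-0.47, 0.0522). Tead4 (ENSMUSG00000030353, chromosome 6, 128224288 to 128300823), the factor of trophectoderm, had 19.6, 17.9 and 13.4 CPM in Esrrb libraries, against 9.55, 14.9 and 14.6 CPM in Nanog-null libraries. These groups overlapped, and the log2 change of 0.38 (95% interval -0.03 to 0.79) was not called (adjusted p = 0.114). It was called without Esrrb replicate 3 (0.52, adjusted p = 0.0366) and with no low-count filter (0.38, adjusted p = 0.0102).

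The coactivators differed from each other. Wwtr1 (ENSMUSG00000027803, chromosome 3, 57455649 to 57575910), which encodes TAZ, had 74.4, 79.0 and 70.4 CPM in Esrrb libraries, against 41.2, 54.9 and 47.2 CPM in Nanog-null libraries. It was higher in every Esrrb library than in any Nanog-null library, by 0.64 ± 0.10 on the log2 scale (adjusted p = 0.00033), and was 0.74 higher without Nanog-null replicate 2. Yap1 (ENSMUSG00000053110, chromosome 9, 7931999 to 8004596) had 235, 252 and 233 CPM in Esrrb libraries, against 243, 242 and 236 CPM in Nanog-null libraries. The libraries overlapped, and the log2 difference of -0.003 had a 95% interval of -0.13 to 0.12 (adjusted p = 0.969).

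Among the kinases that phosphorylate the coactivators, Lats1 (ENSMUSG00000040021, chromosome 10, 7681214 to 7716460) had 36.0, 29.4 and 37.5 CPM in Esrrb libraries, against 51.8, 43.5 and 43.3 CPM in Nanog-null libraries. It was lower in all Esrrb libraries, with a log2 change of -0.43 ± 0.10 (adjusted p = 0.00451). Lats2 (ENSMUSG00000021959, chromosome 14, 57689662 to 57758388) was the lowest of the 10 genes, at 4.67, 4.75 and 5.15 CPM in Esrrb libraries, against 4.22, 5.43 and 4.48 CPM in Nanog-null libraries. Its groups overlapped, with a log2 change of 0.04 (95% interval -0.30 to 0.38, adjusted p = 0.846). The annotation places a readthrough gene, Gm49361, over the same exons on the same strand, and this gene had 0 counts in all 9 libraries, so reads of shared exons may be missing from Lats2 or not, depending on counting settings not given in the sources used here.

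The angiomotins tether YAP1 and TAZ and help to activate LATS kinases. Amot (ENSMUSG00000041688, chromosome X, 145446425 to 145505181) had 14.8, 15.8 and 19.3 CPM in Esrrb libraries, against 25.2, 35.2 and 28.6 CPM in Nanog-null libraries. The groups did not overlap, and the log2 change was -0.84 ± 0.13 (adjusted p = 0.000303). Amotl2 (ENSMUSG00000032531, chromosome 9, 102716672 to 102733418), also a YAP1 target, had 144, 157 and 154 CPM in Esrrb libraries, against 171, 248 and 191 CPM in Nanog-null libraries. All Esrrb libraries were lower, by -0.42 ± 0.11 on the log2 scale (adjusted p = 0.00693), and by -0.27 without Nanog-null replicate 2 (adjusted p = 0.0115).

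That replicate was the highest of its line for Tead2, Tead3, Tead4, Wwtr1, Lats2, Amot and Amotl2. Its log2 ratios to the mean of the other Nanog-null libraries were 0.22 for Tead2, 0.39 for Amot, 0.45 for Amotl2 and 0.51 for Tead3. Over all tested genes a similar ratio, taken from log2 CPM, had an interquartile range of 0.27 in this library. Its median was 0.0005, a value that scaling holds near 0. This replicate was not the highest for Tead1, Lats1 or Yap1. It also had the highest sums of trophoblast and of fibroblast or smooth muscle markers, in cells that had been sorted as PECAM+PDGFRA-. Krt18 gave 102 of the 121 CPM of the trophoblast sum in this library and Acta2 54.3 of the 83.1 CPM of the other, whereas Thy1, a fibroblast marker, averaged 9.24, 8.96 and 2.27 CPM in the Esrrb+Nanog, Esrrb and Nanog-null lines. The part of such cells in the levels of the pathway genes was not tested. The falls of Tead2 (-0.87) and Amot (-0.71) were called without it.

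**Figure D2:**
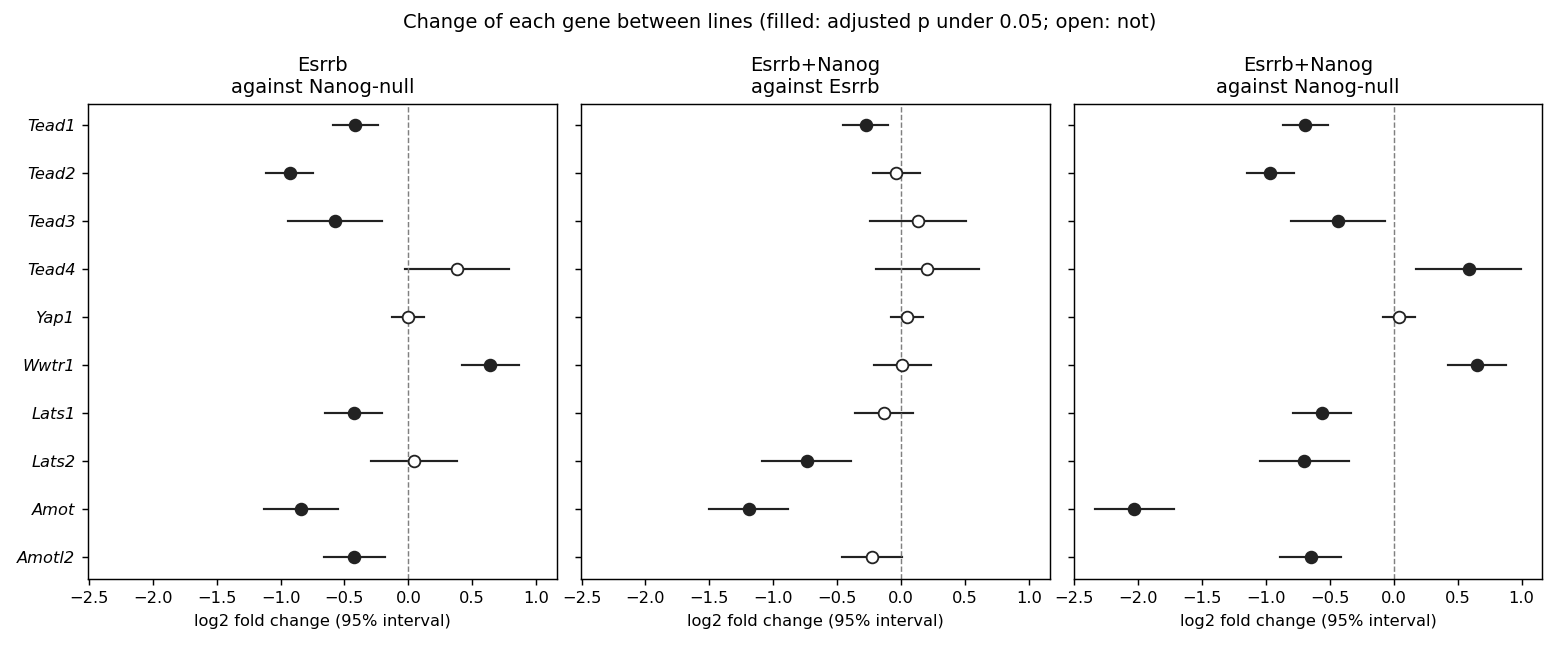
Log2 fold change (horizontal axis) of each of the 10 genes in the 3 comparisons, with its 95% interval (line). Filled points have an edgeR adjusted p under 0.05 and open points do not. Amot moved furthest, by -2.03 between the Esrrb+Nanog and Nanog-null lines, and the intervals of Yap1 cross 0 in all 3 panels.

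In the line with both added genes, the angiomotin gene Amot and the kinase gene Lats2 were lower than in the Esrrb line, while Yap1, Wwtr1 and Tead2 were not called. By this comparison 3 of the 10 genes were lower in the Esrrb+Nanog line (Tead1, Lats2 and Amot), 0 were higher and 7 were not called by edgeR. Over all tested genes 13.2% were called, 7.75% lower and 5.43% higher, and the median log2 change was -0.01, against -0.08 over the 10 genes. With library totals as the only scaling, the split over all tested genes turned round (1386 higher and 941 lower, in place of 880 and 1255), and 2 members were lower and 0 higher. The libraries of the lines did not overlap for 4 of the 10 genes, against 31.6% of all tested genes. Without Esrrb+Nanog replicate 2, 1 member (Amot) and 7.24% of all tested genes were called.

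Amot had 7.46, 6.80 and 7.53 CPM in Esrrb+Nanog libraries, against 14.8, 15.8 and 19.3 CPM in Esrrb libraries. The groups lay far apart, with a log2 change of -1.19 ± 0.14 (adjusted p = 0.000357), and its values without each library in turn or under the other settings ran from -1.27 to -1.07. Lats2 had 3.36, 2.61 and 2.73 CPM in Esrrb+Nanog libraries, against 4.67, 4.75 and 5.15 CPM in Esrrb libraries. It was lower in each Esrrb+Nanog library, by -0.74 ± 0.16 on the log2 scale (adjusted p = 0.0108, and 0.0521 without Esrrb+Nanog replicate 2). Tead1 had 211, 192 and 184 CPM in Esrrb+Nanog libraries, against 224, 254 and 234 CPM in Esrrb libraries. The groups did not overlap, but its call was narrow (log2 change -0.28 ± 0.081, adjusted p = 0.0423).

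That call of Tead1 ended when any library but Esrrb+Nanog replicate 1 or Nanog-null replicate 1 was left out, with adjusted p from 0.0544 to 0.134, and with library totals alone (0.110) or a minimum of 5 CPM in 3 libraries (0.0512). Amotl2 had 132, 132 and 125 CPM in Esrrb+Nanog libraries, against 144, 157 and 154 CPM in Esrrb libraries. Although every Esrrb+Nanog library was lower, the log2 change of -0.23 (95% interval -0.47 to 0.01) was not called (adjusted p = 0.198). It was called with no low-count filter (0.0372) and with only these lines in the fit (0.0497). Lats1 had 32.8, 30.8 and 30.2 CPM in Esrrb+Nanog libraries, within the range of the Esrrb libraries, and was not called (log2 change -0.13, adjusted p = 0.447).

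The remaining genes overlapped between these lines. Tead2 had 66.1, 74.2 and 75.1 CPM in Esrrb+Nanog libraries, with a log2 difference of -0.04 from Esrrb libraries (95% interval -0.22 to 0.15, adjusted p = 0.826). Wwtr1 had 72.6, 83.3 and 69.6 CPM (log2 difference 0.01, 95% interval -0.21 to 0.23), and Yap1 235, 250.2 and 259 CPM (0.05, -0.08 to 0.17). For these 3 genes the interval lies within a fold change of 1.5 either way. The intervals of Tead3 (-0.24 to 0.50) and Tead4 (-0.20 to 0.61), both at low levels, were wider. That of Tead3 also lies within a fold change of 1.5, and that of Tead4 reaches beyond it. In Esrrb+Nanog libraries Tead3 had 9.08, 9.81 and 7.77 CPM and Tead4 19.1, 23.2 and 16.5 CPM.

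Set against the Nanog-null line, the Esrrb+Nanog line was lower in 7 of the 10 genes, higher in Wwtr1 and Tead4, and not called only in Yap1 by edgeR. Of all tested genes 54.4% were called, 27.2% lower and 27.2% higher, and 61.9% had libraries that did not overlap, against 8 of the 10. Amot fell most, to a mean of 7.26 ± 0.40 CPM (SD, n = 3) against 29.7 ± 5.1 CPM in Nanog-null libraries (log2 change -2.03 ± 0.14 SE, adjusted p = 5.24e-07). It and Tead2 (-0.97 ± 0.084, adjusted p = 2.76e-06) were the members called against a fold change of 1.5. Both Lats genes were lower, Lats1 by -0.56 ± 0.10 (adjusted p = 0.000693) and Lats2 by -0.70 ± 0.16 (adjusted p = 0.00309). Tead1 and Amotl2 had log2 changes of -0.69 ± 0.081 (adjusted p = 2.53e-05) and -0.65 ± 0.11 (adjusted p = 0.000364).

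Tead4 was higher in all Esrrb+Nanog libraries than in any Nanog-null library (log2 change 0.59 ± 0.19, adjusted p = 0.0194), a call that ended without Nanog-null replicate 1 (0.40, 0.0819) or Esrrb+Nanog replicate 2 (0.45, 0.0854). Tead3 overlapped between these lines and was called narrowly (-0.44 ± 0.17, adjusted p = 0.0433). That call was lost with library totals alone (0.0651), without any Esrrb+Nanog library (0.0503 to 0.147), without Esrrb replicate 1 (0.0594), without Nanog-null replicate 2 (log2 change -0.25, 0.209) and without Nanog-null replicate 3 (0.0721). Wwtr1 was 0.65 ± 0.10 higher (adjusted p = 0.000233). This comparison shares its libraries with both others, so its values are not independent of theirs.

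Levels of different genes were compared per kilobase of annotated exon. In the Nanog-null line Amotl2 was highest of the 10 (32.3 ± 6.3 CPM per kilobase, SD, n = 3), followed by Tead2 (29.3 ± 3.0), Yap1 (26.0 ± 0.42) and Tead1 (23.3 ± 2.2). Amotl2 and Tead2 differed by less than the larger of their SDs, and the gaps from Tead2 to Yap1 and from Yap1 to Tead1 only just exceeded theirs. With the longest transcript as length, Yap1 (45.5 ± 0.74) stood above Tead2 (41.3 ± 4.3), so their order depends on the length used. By that length Yap1 was also level with Amotl2 (45.9 ± 8.99) in the Nanog-null line. Wwtr1 (10.0 ± 1.4), Lats1 (6.33 ± 0.67), Tead4 (3.61 ± 0.83), Amot (3.53 ± 0.60), Tead3 (1.79 ± 0.42) and Lats2 (0.676 ± 0.092) came below, and of these only Tead4 and Amot were within their spread. With Yap1 nearly level across lines and Tead2 and Amotl2 lower, Yap1 was the highest member in the Esrrb+Nanog line (26.8 ± 1.3 CPM per kilobase) and in the Esrrb line (25.9 ± 1.1). Amotl2 came next at 20.6 ± 0.68 and 24.1 ± 1.0 CPM per kilobase in those lines. Among all genes ranked by per-length level, Tead2 stood at the 77.3rd percentile in the Esrrb+Nanog line, the 77.6th in the Esrrb line and the 88.6th in the Nanog-null line. Amot stood at the 28.1st, 40.1st and 48.6th percentiles in the same order.

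The make-up of the Tead family differed between lines. Its summed per-length level was 36.0, 37.6 and 35.0 CPM per kilobase in Esrrb+Nanog libraries, 38.5, 41.3 and 36.6 in Esrrb libraries and 56.1, 61.1 and 56.7 in Nanog-null libraries. Neither line with added genes overlapped the Nanog-null line in this sum (exact permutation test over libraries, p = 0.1 for each, two-sided, the smallest that 3 against 3 allows). Tead2 made up 41.4 ± 3.2% of the sum in Esrrb+Nanog, 39.6 ± 0.21% in Esrrb and 50.4 ± 3.3% in Nanog-null libraries (SD, n = 3). Its share was lower in both lines with added genes, with no overlap with Nanog-null (exact permutation p = 0.1 each). The share of Tead4 was 14.8, 17.2 and 13.1% in Esrrb+Nanog libraries, 14.1, 12.1 and 10.2% in Esrrb libraries and 4.73, 6.76 and 7.13% in Nanog-null libraries, and it too did not overlap Nanog-null (exact permutation p = 0.1 each). Tead4's own level was 4.72 ± 0.89 CPM per kilobase in Esrrb and 3.61 ± 0.83 in Nanog-null libraries, which overlapped and were not called apart by edgeR. Its larger share in the Esrrb line thus also rests on the lower family sum. Tead1 held 39.9 ± 2.9%, 45.2 ± 2.1% and 40.3 ± 5.0%, with overlapping libraries in every pair of lines. Tead3 held 3.65 ± 0.31%, 3.098 ± 0.23% and 3.07 ± 0.57%, with no overlap between Esrrb+Nanog and Esrrb (exact permutation p = 0.1).

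**Figure D3:**
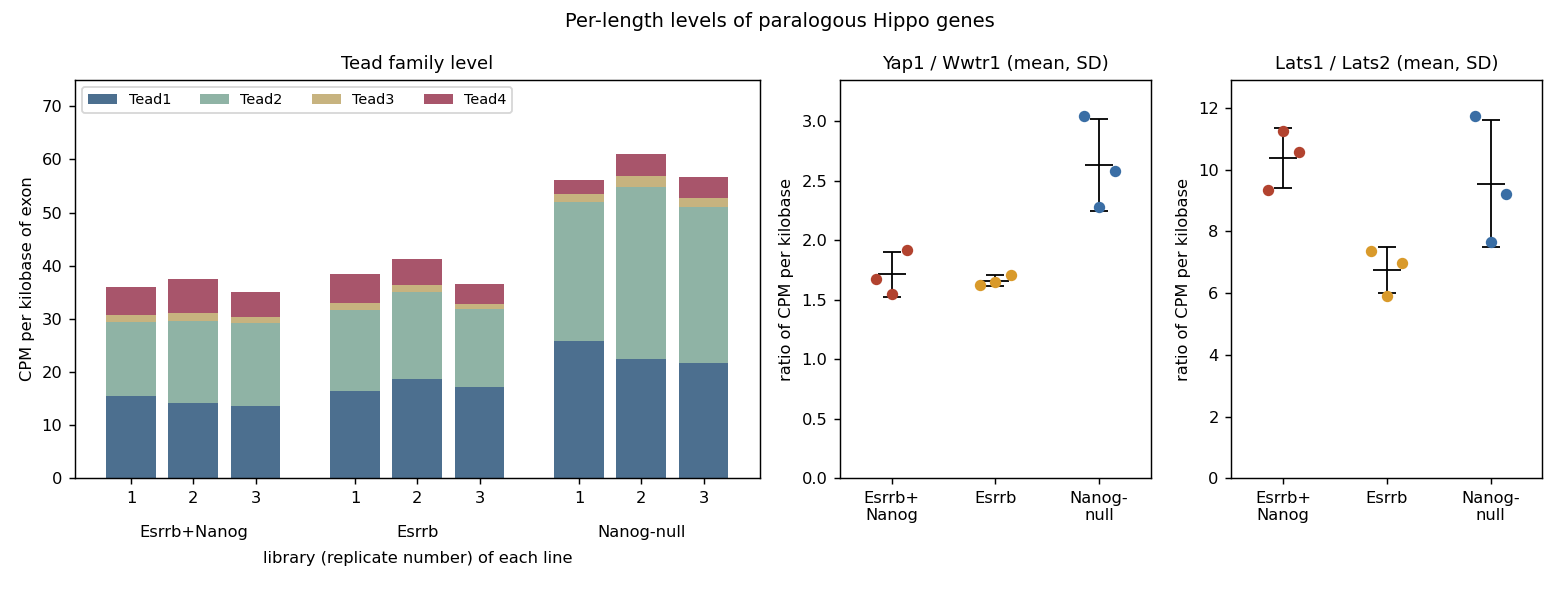
Left, level of the 4 Tead genes per kilobase of exon (stacked bars, CPM per kilobase) in each library. Middle and right, the Yap1 to Wwtr1 and Lats1 to Lats2 ratios of per-length level in each library (points) with mean and SD (bars). The Tead sum is 35.0 to 41.3 in the lines with added genes and 56.1 to 61.1 in Nanog-null libraries, and the Yap1 to Wwtr1 ratio is 1.55 to 1.92 in the lines with added genes and 2.28 to 3.04 in Nanog-null libraries.

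The balance of the coactivators followed Wwtr1. The ratio of Yap1 to Wwtr1 per length was 1.67, 1.55 and 1.92 in Esrrb+Nanog libraries, 1.63, 1.65 and 1.71 in Esrrb libraries and 3.04, 2.28 and 2.58 in Nanog-null libraries. Both lines with added genes lay below every Nanog-null library (exact permutation p = 0.1 each) and overlapped each other (p = 0.8). These ratios depend on the length used, and with the longest transcript in place of all exons they were 2.95 ± 0.32, 2.86 ± 0.074 and 4.54 ± 0.67 (SD, n = 3). The Lats1 to Lats2 ratio was 9.33, 11.3 and 10.6 in Esrrb+Nanog libraries, 7.37, 5.91 and 6.97 in Esrrb libraries and 11.7, 7.66 and 9.22 in Nanog-null libraries. It was lowest in the Esrrb line, which overlapped neither other line (exact permutation p = 0.1 each).

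Pathway genes outside the 10 were described from lists chosen with earlier results of these data known. Over all tested genes, 48.5% were called between the Esrrb and Nanog-null lines and 13.2% between the Esrrb+Nanog and Esrrb lines. The counts of each list below stand beside these shares. Of 15 kinases and adaptors upstream of or beside LATS, 3 were higher and 5 lower in the Esrrb line than in the Nanog-null line by edgeR (median log2 change -0.03), and 1 was higher without Nanog-null replicate 2. Of the core of the cascade, named here after the values were seen, the kinase gene Stk3 (MST2) was called lower (-0.40, adjusted p = 0.00291), and its relative Stk4 (MST1) and the scaffold gene Sav1 were not called (-0.07 and -0.03). Also named after the values were seen, the 3 higher genes were the adaptor gene Mob1b (0.35, adjusted p = 0.0106), Taok1 (0.30, 0.0329) and Map4k2 (0.37, 0.00243). Mob1a, the relative of Mob1b, was not called (0.05). Taok3, a kinase that acts on MST kinases, had 19.6, 16.2 and 19.1 CPM in Esrrb libraries, against 27.7, 32.3 and 29.8 CPM in Nanog-null libraries (log2 change -0.71, adjusted p = 0.000239). Map4k5 and Map4k4, kinases that can phosphorylate LATS beside MST, were lower too (-0.47 and -0.57). Between the Esrrb+Nanog and Esrrb lines 0 of the 15 were called by edgeR, with 4 at an unadjusted p under 0.05, and the smallest adjusted p were those of Map4k5 (0.140), Mob1a (0.144) and Map4k2 (0.146), which DESeq2 did not call either. Mob1a was called higher with library totals alone (0.20, adjusted p = 0.029).

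Of the upstream and junctional regulators, 18 of 19 were tested, and 10 were lower and 2 higher in the Esrrb line than in the Nanog-null line (median log2 change -0.27), with the same counts without Nanog-null replicate 2. Over all tested genes 24.2% were lower and 24.2% higher. Wwc1, which encodes the scaffold KIBRA, had 38.3, 35.8 and 39.1 CPM in Esrrb libraries, against 103, 114 and 112 CPM in Nanog-null libraries (log2 change -1.54 ± 0.071, adjusted p = 3.56e-08). Amotl1, the third angiomotin, had 12.4, 12.2 and 13.9 CPM in Esrrb libraries, against 50.4, 70.6 and 56.5 CPM in Nanog-null libraries (-2.20 ± 0.14, adjusted p = 4.71e-07). All 3 angiomotin genes were thus lower in the Esrrb line. Ptpn14, a phosphatase that binds YAP1, had 35.3, 34.2 and 42.9 CPM in Esrrb libraries, against 142, 168 and 121 CPM in Nanog-null libraries (-1.94 ± 0.13, adjusted p = 5.07e-07).

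In the Esrrb+Nanog line Ptpn14 was lower again than in the Esrrb line, at 20.4, 16.9 and 17.1 CPM (log2 change -1.04 ± 0.13, adjusted p = 0.0005), and so was Wwc2, a relative of KIBRA (-0.34 ± 0.060, adjusted p = 0.00375). These were the 2 of 18 regulators called lower there, and 0 were higher. Amotl1 had 15.4, 11.0 and 12.4 CPM in Esrrb+Nanog libraries, which overlapped the Esrrb libraries (log2 change 0.01), whereas Amot fell between these lines.

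Apicobasal polarity proteins place the angiomotins and KIBRA at the cell cortex. Of 9 such genes 4 were lower and 1 higher in the Esrrb line than in the Nanog-null line (median log2 change -0.14). Over all tested genes 24.2% were lower and 24.2% higher. The higher gene was Prkci, described below, with means of 374 CPM in Esrrb and 285 CPM in Nanog-null libraries (0.39, adjusted p = 0.000375). Patj, a scaffold of the Crumbs complex, had 5.39, 4.66 and 6.34 CPM in Esrrb libraries, against 53.7, 62.2 and 52.5 CPM in Nanog-null libraries (-3.37 ± 0.17, adjusted p = 6.94e-08). Crb3, the Crumbs protein of epithelia, had 3.70, 3.34 and 3.30 CPM in Esrrb libraries, against 14.6, 20.8 and 17.0 CPM in Nanog-null libraries (-2.34 ± 0.22, adjusted p = 7.67e-06). Pard6b, a Par complex adaptor, was lower by a log2 change of -0.65 (adjusted p = 9e-05). Only Prkci, an atypical protein kinase C, was called between the Esrrb+Nanog and Esrrb lines, at 317 ± 17 CPM against 374 ± 24 CPM (-0.24, adjusted p = 0.03), a call lost when any Esrrb+Nanog library, Esrrb replicate 1 or 2, or Nanog-null replicate 3 was left out, with library totals alone or with only these lines in the fit. Llgl1 and Patj were next there (-0.13 and -0.27, adjusted p = 0.28 and 0.389).

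Vestigial-like proteins bind TEADs in competition with YAP1 and TAZ. Only Vgll3 and Vgll4 of the 4 genes passed the low-count filter, and Vgll1 and Vgll2 averaged at most 0.105 CPM in any line. Vgll3 had 2.29, 2.13 and 1.93 CPM in Esrrb+Nanog libraries, against 4.42, 5.79 and 3.61 CPM in Esrrb libraries (log2 change -1.13 ± 0.24, adjusted p = 0.00976). Between the Esrrb and Nanog-null lines Vgll3 (-0.51, adjusted p = 0.0732) and Vgll4 (0.23, adjusted p = 0.201) were not called. Vgll4 was called higher without Nanog-null replicate 2 (0.40, adjusted p = 0.0247), and Vgll3 lower with no low-count filter, with the replicate number as a block, or without Esrrb replicate 2 or Nanog-null replicate 3 (adjusted p from 0.021 to 0.042). Vgll4 had a log2 change of -0.02 between the Esrrb+Nanog and Esrrb lines (adjusted p = 0.95).

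**Figure D4:**
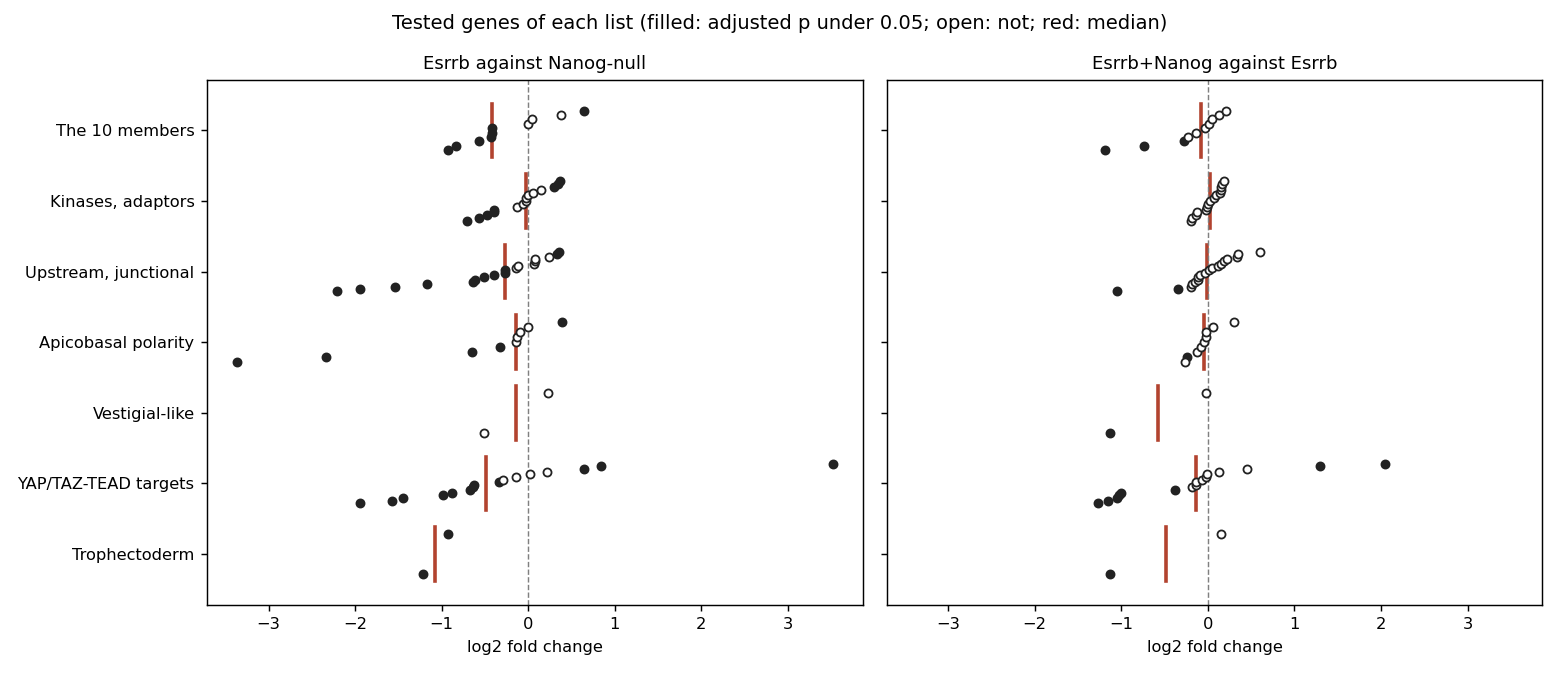
Log2 fold change (horizontal axis) of each tested gene of the 10 members and of 6 further lists between Esrrb and Nanog-null libraries (left) and between Esrrb+Nanog and Esrrb libraries (right). Filled points have an edgeR adjusted p under 0.05, open points do not, and red lines are list medians. Patj (-3.37), Crb3 (-2.34) and Amotl1 (-2.20) lie furthest to the left in the left panel, and the kinases all have open points in the right panel.

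Target genes of YAP1, TAZ and TEAD were taken from a signature of human cancers, without Amotl2 and Lats2, and of 20 genes 16 were tested. In the Esrrb line 9 were lower and 3 higher than in the Nanog-null line (median log2 change -0.48), against 24.2% lower and 24.2% higher of all tested genes. Ptpn14, named above, is also on this list. Nt5e, a surface nucleotidase, had 11.0, 17.8 and 11.6 CPM in Esrrb libraries, against 0.649, 1.39 and 1.41 CPM in Nanog-null libraries (3.52 ± 0.31, adjusted p = 4.42e-06), and so rose although most of its list fell. Dock5, an exchange factor gene, rose as well, to 58.2 ± 6.1 CPM against 37.2 ± 3.2 CPM (0.65, adjusted p = 0.000305). Ccn1, the matricellular gene most often used as a readout of YAP1 and chosen here after its values were seen, had 12.1, 18.1 and 12.9 CPM in Esrrb libraries, against 28.9, 65.2 and 34.7 CPM in Nanog-null libraries (-1.57, adjusted p = 0.000489).

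In the Esrrb+Nanog line 6 of the 16 targets were lower and 2 higher than in the Esrrb line (median log2 change -0.14), against 7.75% lower and 5.43% higher of all tested genes. Ccn2, a matricellular gene like Ccn1, had 24.8, 26.3 and 21.1 CPM in Esrrb+Nanog libraries, against 53.1, 52.2 and 55.5 CPM in Esrrb libraries (-1.16 ± 0.12, adjusted p = 0.000137). Ccn1 itself did not fall here. It had 12.4, 16.8 and 13.9 CPM in Esrrb+Nanog libraries, which overlapped the Esrrb libraries (means of 14.3 and 14.4 CPM). Dock5 fell in this comparison, to 28.7 ± 3.1 CPM against 58.2 ± 6.1 CPM (-1.02, adjusted p = 0.000118). Myof, a membrane repair gene, was higher, at 64.0, 69.1 and 96.1 CPM in Esrrb+Nanog libraries, against 19.5, 15.6 and 20.3 CPM in Esrrb libraries (2.05 ± 0.23, adjusted p = 0.000214). Against the Nanog-null line, the Esrrb+Nanog line was lower in 11 of the 16 and higher in 2, and in 9 and 4 without Nanog-null replicate 2. Over all tested genes 54.4% were called in this comparison, and 48.6% without that replicate.

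Of the trophectoderm genes that TEAD4 controls in the mouse embryo, both were low. Cdx2 averaged 0.346 CPM in the Esrrb+Nanog line, 0.31 CPM in the Esrrb line and 0.714 CPM in the Nanog-null line, and Gata3 averaged 0.878, 1.94 and 3.67 CPM. Both were called lower in the Esrrb line than in the Nanog-null line (adjusted p = 0.0488 for Cdx2 and 0.0167 for Gata3), and neither was without Nanog-null replicate 2 (0.174 and 0.0804). Cdx2 was also not called by DESeq2 (0.110) or without Esrrb+Nanog replicate 2, any Esrrb replicate or Nanog-null replicate 3, and Gata3 was not called without Esrrb replicate 1 (0.0727). Between the Esrrb+Nanog and Esrrb lines Gata3 was lower (-1.13, adjusted p = 0.0411), a call lost without any Esrrb+Nanog library, Esrrb replicate 2 or 3, or Nanog-null replicate 3, and Cdx2 was not called (0.16, adjusted p = 0.882).

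Over the 9 libraries, the member pairs most alike in log2 CPM were Amot and Amotl2 (Pearson r = 0.91) and Tead1 and Amot (0.90), and Wwtr1 ran opposite to Lats1 (-0.92). These values are a description, since libraries of a line share its mean. For deviations from the line means, r was 0.76 for Amot and Amotl2, -0.30 for Tead1 and Amot and -0.63 for Wwtr1 and Lats1. Among 10494 other named genes with at least 5 CPM in a line, the pattern of Tead2 was most like that of Prtg (r = 0.99) and Ramp3 (0.99), and 955 genes had r over 0.9 with it. Prtg averaged 7.15, 8.74 and 98.3 CPM in the Esrrb+Nanog, Esrrb and Nanog-null lines. Wwtr1 was most like Ormdl3 (0.99) and Rpp21 (0.99), with 748 genes over 0.9, and Tead1 like Ctps2 (0.98) and Slc25a17 (0.97), with 483. For Tead3 the nearest were Ttyh3 and Ube2j1 (0.98 each, 71 genes over 0.9), for Tead4 Bcl7b and Lamtor5 (0.96 and 0.95, 33 genes) and for Yap1, the gene that varied least, Atp1b3 and Rcl1 (0.95 and 0.94, 9 genes).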

How the data were processed

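Total RNA from 9 libraries of sorted mouse ES cells was depleted of ribosomal RNA before library preparation, per the labels' protocols. The deposited table holds the authors' raw counts of reads per Ensembl gene. The submitters' processing notes list bcl2fastq 2.19.1, STAR 2.5.3a and mm10. No source used here states the strand setting or annotation behind the counting. Of the table's columns, 9 were used and 6 were not used here.

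Gene symbols and exon lengths came from GENCODE M21, which matched 52489 of 52636 IDs. Counts were scaled by TMM and tested with edgeR 4.0.16 (quasi-likelihood, filterByExpr, line as the only term, all 9 libraries in 1 fit), in R 4.3.3, with Benjamini-Hochberg adjustment over 16198 genes and a threshold of 0.05. All adjusted p-values are from this test unless DESeq2 1.42.0 is named. CPM used the scaled library sizes and no pseudocount. Ratios and shares were compared with exact permutation tests (SciPy 1.17.1). The code was tested on simulated data.

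The members and lists were chosen with earlier results of these data known. Beside the members, the genes named are the 3 of each list with the smallest adjusted p in the Esrrb comparison with Nanog-null and in the Esrrb+Nanog comparison with Esrrb, and others are marked where they appear. A gene that this rule names is not reported here. Alternatives were other scalings, filters and fits, DESeq2, another length, a replicate block and leaving out each library.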

Additional observations from a re-analysis of the deposited data

How the results depend on the processing

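Of 30 comparisons of the members, 19 were called, and 14 of these in each of up to 16 alternatives that tested them, other than the test against a fold change of 1.5. The 5 lost in some alternative are those of Tead1, Tead3, Tead4 and Lats2 given above, and 2 uncalled ones (Tead4 and Amotl2) were called in some. Against a fold change of 1.5, 1 member and 15.4% of all tested genes (2488) were called between Esrrb and Nanog-null. Between Esrrb+Nanog and Esrrb 1 member and 1.44% (233) were called, and between Esrrb+Nanog and Nanog-null 2 members and 18.9% (3063). With at least 5 CPM in 3 libraries, 1 member and 15.4% of the 10835 genes then tested were called between Esrrb+Nanog and Esrrb. Tead1 missed the threshold there and Lats2 was no longer tested. Without each library in turn, 1 to 3 members and 1105 to 2374 of all tested genes (6.65% to 14.3%) were called in that comparison. In the order of comparisons of the fold change test, DESeq2 called 7, 3 and 9 members. It called 7668, 2408 and 8711 of 32252 genes with any count, before its own filtering. These counts therefore have another base than those of edgeR.

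No called member changed direction. Small uncalled log2 changes did: with library totals alone, Tead2 (0.0267) and Vgll4 (0.0447) between Esrrb+Nanog and Esrrb, and with only the lines compared, Yap1 between Esrrb and Nanog-null (7e-04). Without each library in turn, Yap1 (-0.038 to 0.0204) and Lats2 (-0.0547 to 0.1401) changed sign between Esrrb and Nanog-null, and Tead2 (-0.0729 to 0.0311), Wwtr1 (-0.0689 to 0.0634), Vgll4 (-0.0563 to 0.0248) and Cdx2 (-0.2997 to 0.5884) between Esrrb+Nanog and Esrrb. The same holds for differences in the Tead1 share (-2.214 to 2.451 percentage points) and the Lats1 to Lats2 ratio (-0.09652 to 1.943) between Esrrb+Nanog and Nanog-null, the Tead3 share between Esrrb and Nanog-null (-0.2467 to 0.3233 percentage points) and the Yap1 to Wwtr1 ratio between Esrrb+Nanog and Esrrb (-0.05156 to 0.133). With the longest transcript as length, the Tead1 share differed by 0.07621 percentage points between Esrrb+Nanog and Nanog-null. The cause was not tested.

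With the replicate number as a block, 7, 3 and 9 members were called in the same order of comparisons. Of all tested genes 7997, 2381 and 8946 were called (49.4%, 14.7% and 55.2%). Deviations of same-numbered libraries correlated by more than 0.1 in 3 of 9 pairs (range -0.0248 to 0.2776). Pairs with different numbers ranged from -0.3291 to 0.2236, and 9 of 18 best matches had the same number. These values do not settle whether the numbers pair the libraries, and the main test used no block. Cdx2, Gata3 and Lats2 rest on low counts. Changes of moderate size may not be detectable in Cdx2 and Gata3. In Lats2 a log2 change of -0.74 was called, but smaller ones may not be detectable.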
